A study of Homo sapiens with 2 samples.

Results

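The genes described here encode 10 enzymes that make androgens or convert one androgen into another, AKR1C1, AKR1C2, AKR1C3, SRD5A1, SRD5A3, HSD17B4, HSD17B10, HSD3B1, CYP17A1 and STS. They were taken by gene symbol from the 60671 genes of the count table. Poly-A RNA from C4-2B cells was sequenced once after vehicle and once after overnight exposure to 1 µM (R)-9b, a small molecule that inhibits the tyrosine kinase ACK1 (encoded by TNK2). C4-2B is an established line of castration-resistant prostate cancer (CRPC) cells, and both cultures were kept in medium with fetal bovine serum. With 1 library per condition there was no spread between replicates to test against, so no p-value is given and every comparison is between 2 libraries.

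Prostate tumour cells can obtain testosterone and dihydrotestosterone from adrenal precursors as well as from the testis. STS frees dehydroepiandrosterone from its sulfate, HSD3B1 turns it into androstenedione, AKR1C3 reduces androstenedione to testosterone, and steroid 5-alpha reductases such as SRD5A1 complete the path to dihydrotestosterone. AKR1C1 and AKR1C2 act at the other end, reducing dihydrotestosterone to weaker metabolites, while CYP17A1 stands at the start of the path and makes dehydroepiandrosterone from pregnenolone.

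The 3 AKR1C genes lie side by side on chromosome 10. In the GENCODE 29 annotation of GRCh38, AKR1C1 spans chr10:4963253-4983283 on the plus strand, AKR1C2 spans chr10:4987400-5018031 on the minus strand and AKR1C3 spans chr10:5035354-5107686 on the plus strand. Their coding sequences are each 969 bases long. Those of AKR1C1 and AKR1C2 differ at 19 bases (98.04% identity), whereas AKR1C3 differs from AKR1C1 at 83 bases (91.43% identity) and from AKR1C2 at 87 (91.02% identity). The stretch from coding base 13 to 162 is shown because it carries 11 of the 19 differences between AKR1C1 and AKR1C2, by which a read can be assigned to one of them. Capitals mark, in AKR1C1 and AKR1C2, the bases at which these genes differ and, in AKR1C3, the 18 bases at which it differs from AKR1C1. The stretch is joined across an intron.
AKR1C1: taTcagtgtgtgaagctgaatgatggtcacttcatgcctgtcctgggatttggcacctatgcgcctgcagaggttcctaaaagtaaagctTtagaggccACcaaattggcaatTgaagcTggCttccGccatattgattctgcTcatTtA
AKR1C2: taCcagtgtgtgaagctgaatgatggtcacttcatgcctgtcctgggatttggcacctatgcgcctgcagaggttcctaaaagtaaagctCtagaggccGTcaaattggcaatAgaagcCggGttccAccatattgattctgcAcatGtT
AKR1C3: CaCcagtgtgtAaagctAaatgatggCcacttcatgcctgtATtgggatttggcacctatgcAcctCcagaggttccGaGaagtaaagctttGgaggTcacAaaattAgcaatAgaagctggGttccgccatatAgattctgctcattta

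In these transcripts the stretch comes from exonic bases within chr10:4963457-4965991 for AKR1C1, chr10:5001604-5003823 for AKR1C2 and chr10:5094457-5096487 for AKR1C3. Outside it, the coding sequences of AKR1C1 and AKR1C2 share a run of 186 identical bases, longer than the 150-base reads. Of the 820 windows of 150 bases in the AKR1C1 coding sequence, 38 occur unchanged in AKR1C2 (4.63%) and 0 in AKR1C3. Over all annotated transcripts, 10.05% of the 150-base windows of AKR1C1, 13.68% of those of AKR1C2 and 0.44% of those of AKR1C3 also occur in another gene. Single reads from these windows match more than 1 gene, and reads of this kind were not counted by the authors.

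**Figure D1:**
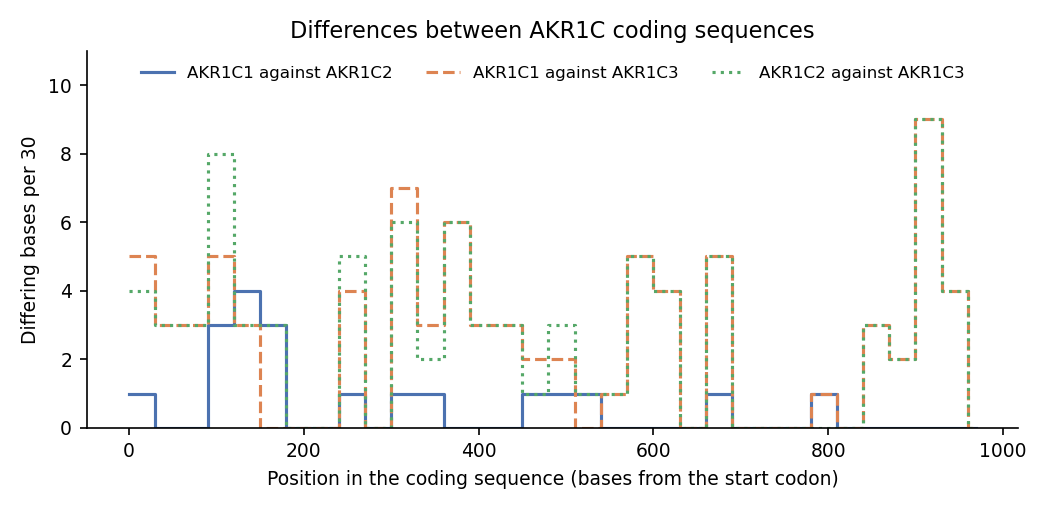
Number of differing bases (vertical axis) in successive windows of 30 bases along the 969-base coding sequence (horizontal axis, bases from the start codon) for each pair of AKR1C genes. AKR1C1 and AKR1C2 differ at 19 bases, 11 of them between coding bases 13 and 162, while AKR1C3 differs from both along most of the sequence.

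The promoters of the AKR1C genes were also compared, since these genes had counts that differed in the same direction. RefSeq promoter windows on GRCh38.p14, running from 250 bases before to 50 bases after an annotated start, were found for all 10 enzymes (17 windows). The 250 bases before the start of AKR1C1 and AKR1C2 share an identical run of 245 bases, whereas the longest run shared by AKR1C1 with the 2 windows of AKR1C3 was 12 and 19 bases. Each of the 4 AKR1C windows holds 1 CCAAT on the reverse strand (ATTGG as printed), a motif found on either strand in 34.61% of the 35093 promoter windows of all genes. Among the other enzymes, CCAAT was also found in both windows of HSD17B10 and in 1 window of STS, and in no window of HSD3B1. The 30 bases around it in the AKR1C windows are shown because all 4 of these windows share the motif, which is in capitals.
AKR1C1: cctctcacatgccATTGGttaaccagcaga
AKR1C2: cctctcacatgccATTGGttaaccagcaga
AKR1C3 first window: tcttttacatgctATTGGttaaccattagg
AKR1C3 second window: cctcctacatgccATTGGttaaccatcagt

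These lie at chr10:4963325-4963354 (plus strand), chr10:5003922-5003951 (minus strand), chr10:5048695-5048724 (plus strand) and chr10:5094315-5094344 (plus strand), in that order. The letters TGACNNNGC, the core of the element bound by the oxidative stress factor NRF2, were found in 13.35% of all windows, and GCGTG, the core bound by the aryl hydrocarbon receptor, in 36.53%, on either strand. Neither was found in the 4 AKR1C windows, which says only that the letters are not in these windows. TGACNNNGC was found in 1 window of SRD5A3 and in 1 of the windows of STS. TATAA, found in 20.44% of all windows, was present in every AKR1C window and, among the other enzymes, in 1 window of STS. In these windows no CCAAT match overlaps a TATAA match, although TATAA can match both strands at neighbouring bases.

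The cells carried prostate luminal transcripts. All 9 prostate luminal markers were detected, and their summed level, in scaled counts per library size (CPM), was 5292 for the vehicle library against 10240 for the (R)-9b library, whereas 6 breast luminal markers summed to 1.49 and 1.58 CPM. The breast markers were examined because the sample labels give breast cancer as the cell type. Among them ESR1 had 2 counts in each library and SCGB2A2 had 0. TFF1 had 41 counts in vehicle and 73 in (R)-9b, SCGB1D2 34 and 8, MGP 12 and 4, and PGR 10 and 2. Of the 8 markers of adrenal and gonadal steroid-forming cells, 4 had 0 counts in both libraries and CYP11A1 carried nearly all of the sum (25.7 and 30.3 CPM). The 4 immune markers summed to 0.0901 and 0.213 CPM and the 4 neuroendocrine markers to 2.57 and 3.35 CPM. The 4 stromal markers summed to 19.5 and 39.2 CPM, most of it COL1A1 with 1114 and 2004 counts and nearly all of the rest PDGFRB with 181 and 205 counts, while COL1A2 and DCN had at most 3 counts. The libraries held 65207444 counts (vehicle) and 57653965 counts ((R)-9b), of which mitochondrially encoded genes took 1.49% and 9.54%. The part of the mitochondrial share in the ratios below was not tested, other than by leaving these genes out of the total, which raised every log2 ratio by 0.063.

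Of the enzymes, AKR1C1, AKR1C2, AKR1C3 and HSD3B1 (4 of 10) had higher levels in the (R)-9b library, and all of them were rare in vehicle. None was lower. The abundant enzymes, SRD5A1, SRD5A3, HSD17B4, HSD17B10 and STS, had log2 ratios between -0.36 and 0.37 and were not called, and CYP17A1 was not detectable in either library. Ratios are (R)-9b over vehicle after scaling with the TMM method of edgeR, each with an exact (Clopper-Pearson) 95% interval that covers counting error only. A gene was called when it had at least 10 counts over both libraries, a ratio past 1.5-fold and an interval that left out a ratio of 1. Among the 23446 genes with that many counts, 14.9% were called higher and 13.4% lower, against 4 higher and 0 lower of the 9 enzymes. The median log2 ratio was 0.37 over these 9 enzymes and -0.0049 over all 23446 genes. The share called falls as counts rise. The 4 rare enzymes belong with the 11584 genes with at least 10 and under 500 counts, of which 20.3% were called higher and 15.9% lower, and the 5 abundant ones with the 7019 genes of at least 3000 counts, of which 7.85% were called higher and 9.20% lower.

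**Figure D2:**
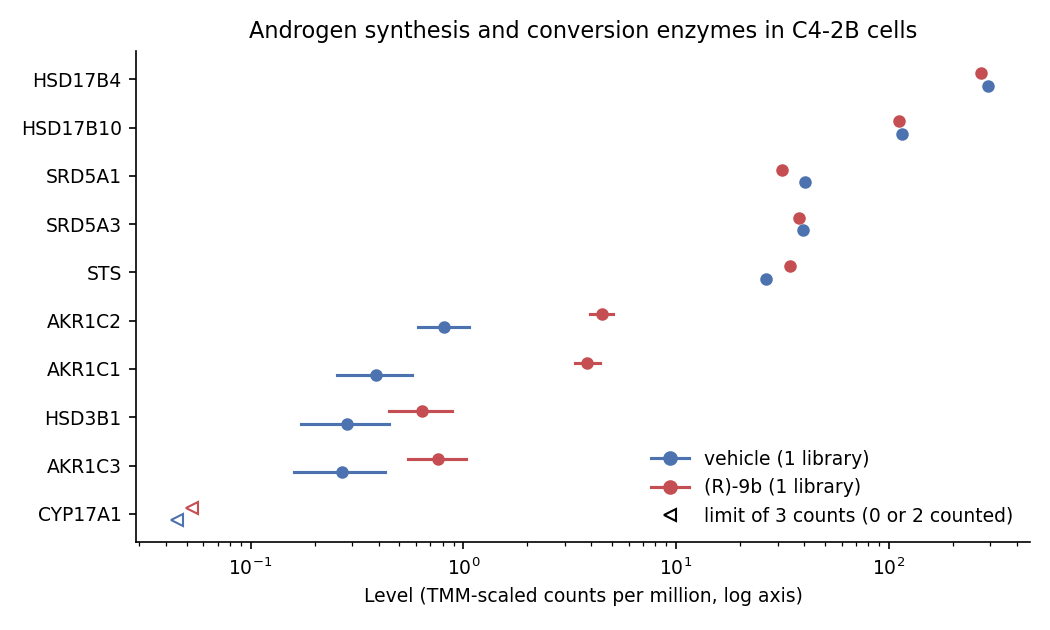
Level of each of the 10 enzymes in the vehicle library (blue) and the (R)-9b library (red), as TMM-scaled CPM on a log axis, with exact 95% Poisson intervals that cover counting error. The 5 abundant enzymes lie above 26 CPM in both libraries with little between them, and AKR1C1 and AKR1C2 move from below 1 CPM to 3.83 and 4.46 CPM. Open triangles for CYP17A1 mark the level of 3 counts.

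The AKR1C genes showed the largest differences among the enzymes. AKR1C1 (ENSG00000187134), which reduces progesterone and dihydrotestosterone to less active steroids, had 26 counts in vehicle and 216 in (R)-9b. Its level was 0.390 CPM against 3.83 CPM, and the intervals of these levels (0.255 to 0.572 and 3.33 to 4.37) do not overlap. On the log2 scale the ratio was 3.29 (95% interval 2.702 to 3.94), or 9.80 times the vehicle level. AKR1C2 (ENSG00000151632), which reduces dihydrotestosterone to a weak diol, had 54 counts in vehicle and 252 in (R)-9b, or 0.811 and 4.46 CPM. Its log2 ratio was 2.46 (2.03 to 2.91), a ratio of 5.50. AKR1C3 (ENSG00000196139), which makes testosterone from androstenedione, had 18 counts in vehicle and 43 in (R)-9b, or 0.270 and 0.761 CPM. Its log2 ratio was 1.49 (0.67 to 2.38), a ratio of 2.82. All 3 were thus low in vehicle and higher in (R)-9b, without overlap of the level intervals. These level intervals take each count as independent and were not computed with the halved counts described below. With halved counts the interval of the AKR1C3 log2 ratio was 0.31 to 2.80.

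The ratios of AKR1C1 and AKR1C3 differed beyond counting error. The log2 ratio of AKR1C1 exceeded that of AKR1C3 by 1.79 (95% interval 0.71 to 2.85) and that of AKR1C2 by 0.83 (0.074 to 1.62). The difference between AKR1C2 and AKR1C3 was 0.96, with an interval (-0.029 to 1.91) that includes 0. Low counts in these libraries were mostly even, 72.2% of counts from 1 to 20 in vehicle and 70.3% in (R)-9b, which is the pattern left if the mates of each fragment add 1 count apiece, so intervals were also computed with all counts halved. With halved counts the difference between AKR1C1 and AKR1C3 kept an interval above 0 (0.23 to 3.37) and that between AKR1C1 and AKR1C2 did not (-0.26 to 1.98). Within the summed counts of the 3 genes, the share of AKR1C1 was 26.5% in vehicle and 42.3% in (R)-9b, that of AKR1C2 was 55.1% and 49.3%, and that of AKR1C3 was 18.4% and 8.41%. AKR1C2 therefore held the most counts of the 3 in both libraries.

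Because reads could be lost or exchanged between AKR1C1 and AKR1C2 in the identical runs described above, their counts were also summed. AKR1C1 and AKR1C2 together had 80 counts in vehicle and 468 in (R)-9b, with a log2 ratio of 2.79 (2.44 to 3.15). With AKR1C3 included, the sums were 98 and 511 counts, and the log2 ratio was 2.62 (2.31 to 2.95), a ratio of 6.15. The transcript table, whose estimates divide ambiguous reads between transcripts, gave estimates of 10.6 (vehicle) and 78.2 ((R)-9b) for AKR1C1, 25.4 and 114 for AKR1C2, and 6 and 15.3 for AKR1C3. The log2 ratios from these estimates were 3.13 (2.20 to 4.22), 2.41 (1.78 to 3.09) and 1.60 (0.16 to 3.25), in the same order as from the gene counts. The neighbouring AKR1C4, a liver enzyme, had 0 counts in vehicle and 2 in (R)-9b and was not detectable.

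HSD3B1 (ENSG00000203857, chr1:119507198-119515054, plus strand), which carries out the step from dehydroepiandrosterone to androstenedione, had 19 counts in vehicle and 36 in (R)-9b. Its level was 0.285 CPM against 0.638 CPM, and the log2 ratio was 1.16 (0.32 to 2.04), a ratio of 2.23. The intervals of the 2 levels barely miss overlap, the upper end in vehicle being 0.4456 CPM and the lower end in (R)-9b 0.4465 CPM. With halved counts the interval of the log2 ratio ran from -0.050 to 2.47, and with the transcript estimates (8 and 15) from -0.17 to 2.60. Both include 0, so the call of HSD3B1 depends on how its reads were counted. Its ratio and that of AKR1C3 differed by 0.33 on the log2 scale, with an interval (-0.90 to 1.57) that includes 0. The closely related gene HSD3B2, the adrenal and gonadal form, had 0 and 1 counts.

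**Figure D3:**
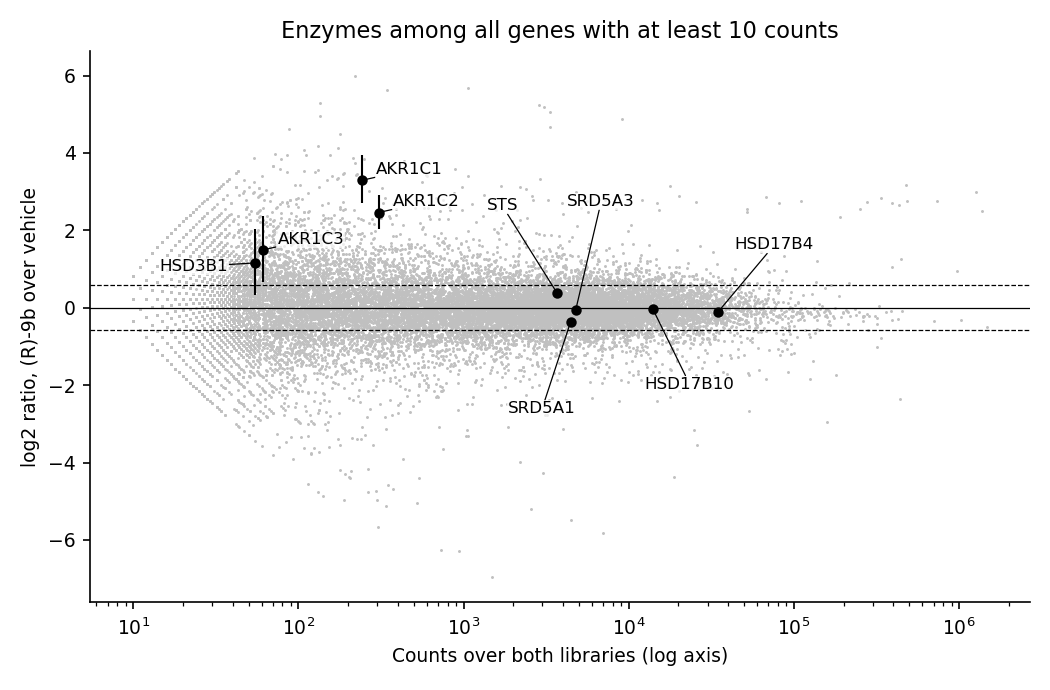
Log2 ratio of (R)-9b over vehicle (vertical axis) against the counts over both libraries (horizontal axis, log scale) for genes that reach 10 counts in total and exceed 3 in each library (grey), with 9 enzymes in black and their 95% intervals. The dashed lines mark 1.5-fold. AKR1C1, AKR1C2, AKR1C3 and HSD3B1 lie above the upper line at low counts, and the 5 abundant enzymes lie between the lines.

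The 5-alpha reductase SRD5A1 (ENSG00000145545, chr5:6633343-6674386, plus strand) converts androstenedione and testosterone to 5-alpha reduced steroids. It had 2681 counts in vehicle and 1774 in (R)-9b, or 40.3 and 31.4 CPM. The log2 ratio of -0.36 (-0.45 to -0.27) was below 0 in its whole interval but short of 1.5-fold. SRD5A3 (ENSG00000128039, chr4:55346109-55373096, plus strand) belongs to the same family by sequence and is known mainly as the reductase that makes dolichol for protein glycosylation. It had 2632 counts in vehicle and 2145 in (R)-9b, or 39.5 and 38.0 CPM, with a log2 ratio of -0.057 (-0.14 to 0.025), and 4.48% of its exon bases overlap the antisense gene SRD5A3-AS1. The ratio of SRD5A1 was lower than that of SRD5A3 by a log2 difference of -0.30 (-0.42 to -0.18; -0.47 to -0.13 with halved counts). Their CPM cannot be compared directly, because the merged exons of SRD5A1 are longer (7715 bases against 4420). Per kilobase of merged exons SRD5A3 stood above SRD5A1 in both libraries, at 8.94 against 5.22 in vehicle and 8.59 against 4.07 in (R)-9b. SRD5A2, the form of normal prostate, had 3 counts in vehicle and 0 in (R)-9b and was not detectable at this depth.

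HSD17B4 and HSD17B10 were the most abundant of the enzymes, and both are known chiefly for work outside steroid metabolism. HSD17B4 (ENSG00000133835, chr5:119452443-119637199, plus strand), a peroxisomal enzyme of fatty acid oxidation that also oxidises steroids, had 19439 counts in vehicle and 15288 in (R)-9b, or 292 and 271 CPM. Its log2 ratio was -0.11 (-0.14 to -0.078). HSD17B10 (ENSG00000072506, chrX:53431258-53434373, minus strand), a mitochondrial enzyme of isoleucine breakdown and a subunit of mitochondrial RNase P, had 7705 counts in vehicle and 6335 in (R)-9b, or 116 and 112 CPM. Its log2 ratio was -0.045 (-0.093 to 0.0035). Both ratios were close to 1, and the difference between them, -0.064 (-0.12 to -0.0069), had an interval that includes 0 with halved counts. Other scalings shifted each ratio by -0.060 to 0.063, which is no less than the reach of these counting intervals.

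STS (ENSG00000101846, chrX:7219456-7354810, plus strand), steroid sulfatase, was the only abundant enzyme of the set with a ratio above 1. It had 1760 counts in vehicle and 1933 in (R)-9b, or 26.4 and 34.2 CPM. The log2 ratio was 0.37 (0.28 to 0.47), short of 1.5-fold, and was 0.49 (0.35 to 0.64) from the transcript estimates. CYP17A1 (ENSG00000148795, chr10:102830531-102837533, minus strand) had 0 counts in vehicle and 2 in (R)-9b. The 0 counts in vehicle allow up to 3 counts, or 0.0451 CPM, and the exact 95% intervals of its level reach 0.0554 CPM in vehicle and 0.128 CPM in the treated library. No ratio is given for it. Of its exon bases, 41.1% overlap WBP1L on the opposite strand, and no strand setting of the counting is given in the sources used here. If strand was not used, reads on these bases match both genes and would not be counted. The counts of CYP17A1 can therefore be too low.

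Per kilobase of merged exons, which allows levels of different genes to be compared, the order in vehicle was HSD17B10 (104 CPM per kilobase), HSD17B4 (27.4), SRD5A3 (8.94), SRD5A1 (5.22) and STS (4.05). Next came AKR1C2 (0.126), HSD3B1 (0.117), AKR1C3 (0.0597) and AKR1C1 (0.0446), among which neighbours in the order did not differ beyond their counting intervals, and CYP17A1 was last. In the (R)-9b library HSD17B10 (100.6), HSD17B4 (25.4) and SRD5A3 (8.59) kept their places, while STS (5.25) stood above SRD5A1 (4.07). The length of STS rests on 1 annotated transcript, whereas the deposited transcript counts list 7. Its place next to SRD5A1 in either library is therefore uncertain. AKR1C2 (0.691) was followed by AKR1C1 (0.436), HSD3B1 (0.261) and AKR1C3 (0.168), and of these neighbours only HSD3B1 and AKR1C3 overlapped in their intervals. These level intervals were not computed with halved counts, with which they would be wider and more of them could overlap. AKR1C1 thus held place 9 in vehicle, where its interval overlapped that of AKR1C3 in place 8, and place 7 in (R)-9b. The abundant enzymes stood above the rare ones in both libraries, but the gap per kilobase was narrower in (R)-9b. The lowest of the abundant enzymes was at 4.05 in vehicle (STS) and 4.07 in (R)-9b (SRD5A1), against 0.126 and 0.691 for AKR1C2. The 5 abundant enzymes held 99.7% of the counts of the set in vehicle and 98.0% in (R)-9b, and AKR1C1, AKR1C2, AKR1C3 and HSD3B1 together held 0.341% and 1.95%.

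The order depends on the length used. With transcript estimates divided by the lengths of the transcripts that carry them, HSD17B4 came first in both libraries and HSD17B10 held place 4 in vehicle and place 3 in (R)-9b. The transcript table lists 4 of the 5 annotated transcripts of HSD17B10, and its estimates for that gene came to 0.033 per gene count, against 0.33 to 0.51 for the other enzymes with at least 10 counts. STS could not be placed, because its transcripts in the table are not in the annotation used for lengths. Among the enzymes that were placed, AKR1C1 held place 7 in vehicle and place 6 in (R)-9b.

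**Figure D4:**
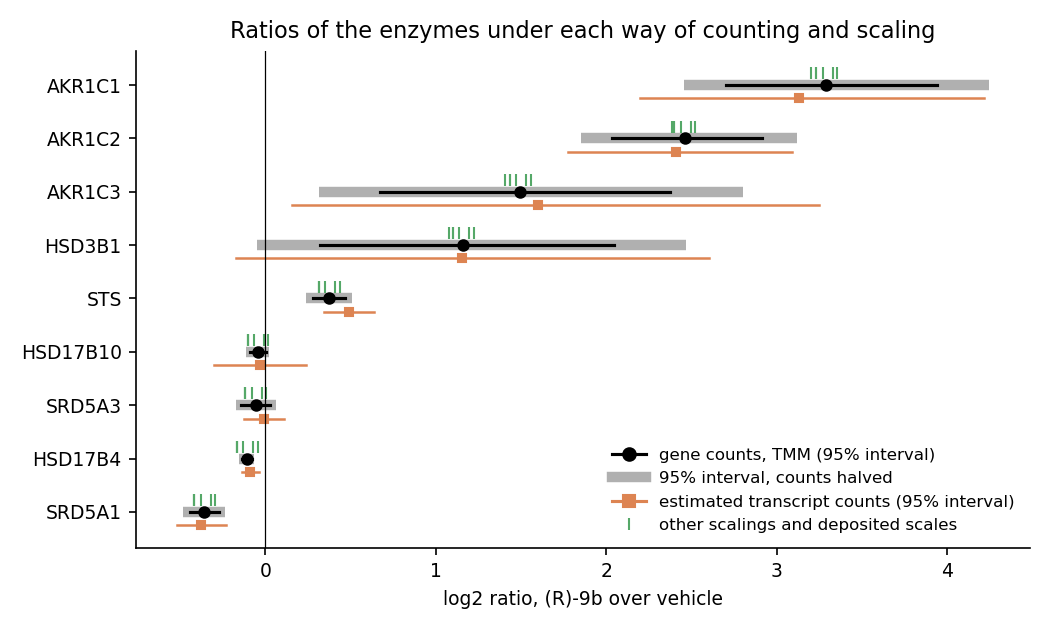
Log2 ratio of (R)-9b over vehicle (horizontal axis) for the 9 enzymes with at least 10 counts. Black points and lines give the TMM-scaled gene counts with 95% intervals, grey bars the intervals with halved counts, orange squares the transcript estimates with 95% intervals, and green ticks the other scalings and the deposited CPM and log2 CPM. AKR1C1, AKR1C2 and AKR1C3 stay above 0 throughout, whereas the HSD3B1 interval reaches below 0 with halved counts and with transcript estimates.

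The other genes of the pathway were examined in lists ordered by role, 82 genes in all, of which 59 had at least 10 counts. Of these 59, 9 were called higher and 5 lower, 45 were not called, and the median log2 ratio was 0.095. The number called higher was close to the 14.9% of all genes, and the number called lower was not above the 13.4% of all genes. Upstream of androgens, none of the 8 genes of cholesterol supply and side-chain cleavage was called. The most abundant of them over both libraries together, TSPO, a mitochondrial cholesterol-binding protein, had 9930 and 9981 counts with a log2 ratio of 0.25. CYP11A1, which starts steroid synthesis from cholesterol, had 1703 and 1694 counts with a log2 ratio of 0.23. None of the 3 partners of cytochrome P450 enzymes was called, CYB5R3 being the most abundant (13860 and 15080 counts, log2 ratio 0.36). The other steroid-forming P450 genes CYP19A1, CYP21A2, CYP11B1 and CYP11B2 had 0 counts in both libraries, where 3 counts are worth 0.0451 and 0.0531 CPM and the exact 95% intervals reach 0.0554 and 0.0653 CPM.

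Among the hydroxysteroid dehydrogenases that are not in the set, 0 of 12 were called higher and 2 were called lower. Over all genes the shares were 14.9% and 13.4%, and with 12 genes nothing is read from these counts. HSD17B6, which can turn the diol made from dihydrotestosterone back into dihydrotestosterone, had 289 counts in vehicle and 141 in (R)-9b, a log2 ratio of -0.80 (-1.10 to -0.50). HSDL1, a mitochondrial relative with no established substrate, had 1934 and 1046 counts, a log2 ratio of -0.65 (-0.76 to -0.54). HSD17B3, the testicular enzyme for the step that AKR1C3 carries out, had 0 counts in both libraries. Of its exon bases, 77.6% overlap the annotated genes AL160269.1, on the same strand, and HSD17B3-AS1. Reads that match more than 1 gene were not counted, so its counts can be too low.

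Of the other aldo-keto reductases 5 had at least 10 counts and none was called. The most abundant, AKR1A1, a general aldehyde reductase, had 17493 and 14798 counts with a log2 ratio of -0.0036, and the median of the 5 was -0.19. AKR1D1, a 5-beta reductase of steroids listed with the reductases, was called higher on 16 and 30 counts, a log2 ratio of 1.14 (0.22 to 2.12) whose interval includes 0 with halved counts. TECR, the most abundant of that list and a fatty acid elongation enzyme, had a log2 ratio of -0.21. Of the 4 retinol dehydrogenase type enzymes with enough counts, RDH5 was called higher on 3 and 31 counts, the end of the log2 interval nearest 0 being 1.93, and 68.2% of its exon bases are shared with the readthrough gene BLOC1S1-RDH5. RDH11, the most abundant, had a log2 ratio of -0.27.

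**Figure D5:**
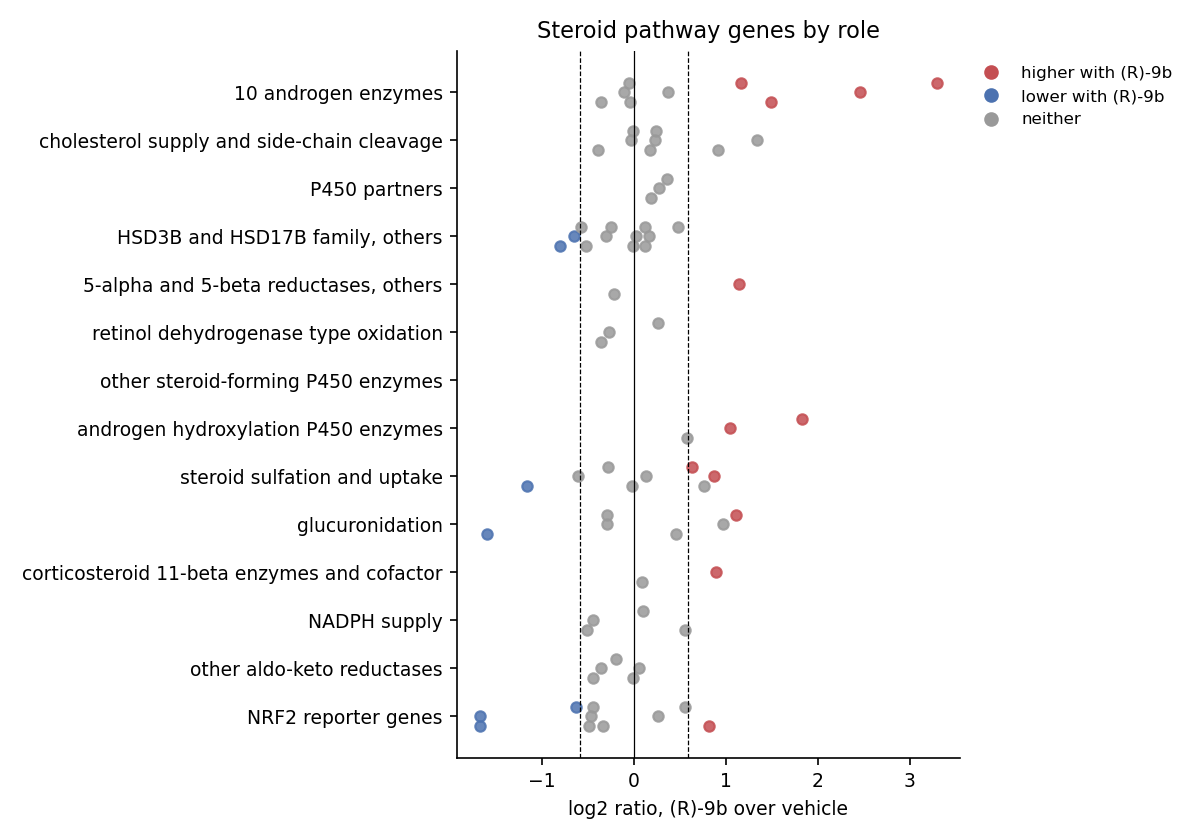
Log2 ratio of (R)-9b over vehicle (horizontal axis) for genes that reach 10 counts in total and exceed 3 in each library, in rows by role. Red points were called higher, blue points lower and grey points neither, and dashed lines mark 1.5-fold. The row of other steroid-forming P450 enzymes is empty because all 4 genes had 0 counts, and RDH5, SLCO1A2 and SLC10A6 are not drawn because one library had 3 counts or fewer.

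Genes that hydroxylate, conjugate or transport steroids were called in both directions. CYP3A5, a P450 that hydroxylates testosterone, had 93 and 163 counts, a log2 ratio of 1.05 (0.67 to 1.43), and CYP3A43, a relative, had 16 and 48 counts, a log2 ratio of 1.82 (0.98 to 2.74). These were 2 of the 3 genes of that list with enough counts. In sulfation and uptake 3 of 10 were higher and 2 lower. SULT2B1, which adds sulfate to dehydroepiandrosterone and cholesterol and so opposes STS, was at 4.01 CPM in vehicle (267 counts) and 1.79 CPM in (R)-9b, a log2 ratio of -1.16 (-1.51 to -0.83). SULT1A1, a phenol sulfotransferase, had 1264 and 1659 counts, a log2 ratio of 0.63 (0.52 to 0.74), and the transporter SLCO4A1 had 2736 and 4233 counts, a log2 ratio of 0.87 (0.80 to 0.94). SLCO1A2 (2 and 10 counts) was also called higher and SLC10A6, which takes up sulfated steroids, lower (12 and 2 counts), and both intervals include 0 with halved counts. AKR1D1, RDH5, SLCO1A2, SLC10A6 and UGT2B11 had under 50 counts over both libraries and are named after their values were seen.

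Among the glucuronidation genes 1 of 6 was higher and 1 lower. UGT2B28, which conjugates androgens, had 40 and 73 counts, a log2 ratio of 1.11 (0.53 to 1.70), and UGT2B11 had 25 and 7 counts, a log2 ratio of -1.60 (-3.05 to -0.35), with an interval that includes 0 with halved counts. UGT2B15 and UGT2B17, the main enzymes that inactivate androgens in prostate, had log2 ratios of -0.29 and 0.46 and were not called. UGT2B genes are close paralogs, so reads can be lost between them, and their counts are uncertain. HSD11B2, which oxidises cortisol and also acts on oxygenated androgens, had 3355 and 5305 counts, a log2 ratio of 0.90 (0.84 to 0.96). From 5.29% (SULT1A1) to 17.9% (UGT2B11) of the exon bases of HSD17B6, SULT1A1, SLCO4A1, HSD11B2 and UGT2B11 overlap another annotated gene. None of the 4 genes that supply NADPH, the cofactor of the AKR1C enzymes and of the 5-alpha reductases, was called, and the most abundant, IDH1, had a log2 ratio of -0.51.

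AKR1C genes are known targets of NRF2, so reporter genes of this factor were set beside the enzymes. Of 10 NRF2 reporter genes 1 was called higher, NQO1 with a log2 ratio of 0.82 (0.76 to 0.87), and 3 were called lower, HMOX1 (-1.67), SLC7A11 (-1.67) and OSGIN1 (-0.62). Their median was -0.45. Over all genes 14.9% were called higher and 13.4% lower, and with 10 reporters nothing is read from these counts. The part of this factor in the levels of the enzymes was not tested.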

How the data were processed

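Poly-A RNA of C4-2B cells was sequenced by the authors as paired-end 150-base reads, 1 library per condition. Per the paper's methods the reads were aligned with STAR to the Ensembl release 101 assembly, and the submitters' processing notes name hg38, STAR 2.5.1a, featureCounts 1.4.6-p5 and Salmon 0.8.2. The authors deposited whole-number gene counts of uniquely aligned, unambiguous reads. The deposited CPM are these counts over the library total, and the deposited moderated log2 CPM add a prior that is not given in the sources used here. The authors also deposited estimated counts per transcript, which need not be whole and were made from the reads with Salmon per the processing notes. These were summed per gene as an alternative and rounded to whole numbers for the scaling factors only. The counting strand is not given in the sources used here.

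Repeated lines of genes (200) were dropped, leaving 60671 genes. Counts were scaled with TMM (edgeR 4.0.16, R 4.3.3). Exact intervals were computed in Python 3.11.15 with scipy 1.17.1 and tested on simulated data. The simulated counts were independent Poisson draws without the excess of even low counts seen here. The test therefore checks the computation only. Where 1 library had 3 counts or fewer, the interval bound closest to no change replaced the ratio, and where both did, none was given. Differences between the log2 ratios of enzymes are conditional odds ratios with exact intervals. Depth was 65207444 and 57653965 counts, and 3 counts were 0.0451 and 0.0531 CPM. PCR copies could not be told apart, so intervals and limits cover counting error only. Nothing in the labels names separate cultures. Gene spans, exon lengths and coding sequences came from GENCODE 29 and promoter windows from RefSeq (GRCh38.p14), not the annotation release the authors used. The alternatives were total counts, DESeq2 1.42.0 size factors, the upper quartile, totals without mitochondrial genes, halved counts, transcript estimates, the deposited CPM and log2 CPM, minimum counts of 1 and 50, 2-fold, and the whole interval past 1.5-fold.

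The members, lists and rules were chosen with earlier results of these data known. The genes named are all 10 enzymes, each listed pathway gene called with at least 50 counts, and, for a list without one, its most abundant gene; others are named as stated in the text. One gene and the reporter list that goes with it are not reported here.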

Additional observations from a re-analysis of the deposited data

How the results depend on the processing

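AKR1C1, AKR1C2, AKR1C3 and HSD3B1 kept log2 ratios above 0 under all 8 alternatives of counting and scaling, within 3.13 to 3.36, 2.39 to 2.52, 1.41 to 1.60 and 1.08 to 1.22. Most of these alternatives could not change the sign of ratios this large. Halving the counts leaves a ratio as it was, the deposited CPM repeat the total counts, and the scalings shift all genes alike. Only the transcript estimates assign the reads anew. SRD5A1 ranged from -0.42 to -0.30 and STS from 0.31 to 0.49. The uncalled SRD5A3 (-0.12 to 0.0054) and HSD17B10 (-0.10 to 0.018) each changed sign under 1 alternative. Scalings shifted every log2 ratio by -0.060 (total counts) to 0.063 (totals without mitochondrial genes). The number of enzymes called higher was 4 in the main analysis and 3 with transcript estimates, with halved counts and with the whole interval past 1.5-fold, HSD3B1 being the gene lost, and 0 were lower throughout. Of the other pathway genes, requiring the whole interval past 1.5-fold left 5 higher and 1 lower in place of 9 and 5. The number lower was 8 with transcript estimates and 3 with halved counts, with a minimum of 50 counts and with 2-fold. With transcript lengths, 2 of 9 enzymes kept their place in the order of levels in vehicle and 4 of 9 in (R)-9b. No paired analysis was possible because each condition has 1 library. For the rare enzymes depth sets what can be seen, since 3 counts are about 0.05 CPM, and without replicates no alternative stands for the spread between cultures.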

Other observations

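The transcript estimates show which isoforms carried the enzymes. SRD5A3-201 held 85.9% of the SRD5A3 estimate in vehicle and 88.4% in (R)-9b, STS-206 held 88.2% and 89.5% of STS, SRD5A1-201 held 71.9% and 70.8% of SRD5A1, and HSD17B4-213 held 69.0% and 72.8% of HSD17B4. All 4 are protein-coding, and each stayed the main isoform in both libraries.

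AKR1C2-202, protein-coding, was the main isoform of AKR1C2 with estimated counts of 17.8 in vehicle and 86.4 in (R)-9b. For AKR1C1 the largest part went to AKR1C1-205, a transcript without a coding annotation (6.25 and 34.4), followed by the protein-coding AKR1C1-203 (4.34 and 31.2) and AKR1C1-202 (0 and 12.6). For AKR1C3 the vehicle estimate lay mostly on AKR1C3-208, a retained-intron transcript (4.78 against 0 in (R)-9b), and the (R)-9b estimate mostly on the protein-coding AKR1C3-202 (0 in vehicle against 10.6). These AKR1C3 values rest on few reads and give no comparison of isoforms.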
